A study of Drosophila melanogaster with 4 samples.

Results

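Chinmo occupied 397 regions that lay inside introns of protein-coding genes and more than 1000 bp and at most 4000 bp from the nearest protein-coding transcription start site (TSS), in whole *Drosophila melanogaster* embryos. They made up 11.4% of the 3491 regions found in at least 2 of 4 chromatin immunoprecipitation (ChIP-seq) libraries. Each library came from a separate biological replicate of embryos aged 6 to 24 h, of a transgenic strain named chinmo-GFP that carried Chinmo fused to enhanced GFP. Immunoprecipitation used an antibody against GFP, per the description, although the antibody field names chinmo. All 4 libraries shared this genotype and stage, so the study held no comparison of conditions. Whether the embryos kept an untagged copy of Chinmo is not given in the sources used here. Embryos were processed whole, so occupancy in fewer cells and weaker occupancy in more cells cannot be told apart.

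The members were chosen by position alone. Peak summits of the 4 lists that had passed the authors' irreproducible discovery rate (IDR) threshold were merged into 1 region when they lay less than 200 bp apart, and the median summit was taken as its centre. A member's centre lay in a protein-coding gene and in no annotated exon. Of all regions, 2371 (67.9%) lay within 1000 bp of a TSS and are called promoter regions, 348 (9.97%) lay in introns over 4000 bp from a TSS and are called far intronic, and 250 (7.16%) lay between genes over 1000 bp from a TSS. Rank among the called peaks did not enter the choice, although a region had to pass the authors' threshold in 2 libraries, and the threshold itself depends on the strength of a peak.

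Chinmo belongs to the BTB zinc finger family of transcription factors and is known in flies for controlling the timing of neuronal identity, for keeping stem cells in a self-renewing state and for acting downstream of JAK/STAT signalling. Introns of developmental genes in flies often carry enhancers, and the stretch just beyond a promoter, commonly within the first intron, is a frequent place for them. GAGA factor, encoded by *Trl*, binds repeats of GA and keeps chromatin accessible, while Grainyhead opens chromatin at enhancers of epithelial cells.

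Sequences of 8 members are printed because they stood among the strongest in every library. They are not the top 8. The strongest member, in *KCNQ*, is not printed. Neither is that in *mam*, which ranked above the printed members of *Tlk*, *org-1* and *CG3764*. Each covers 60 bp to each side of the centre on the plus strand, 121 bp in all, in RefSeq's Release 6 genome, the assembly that dm6 names. Capitals mark matches to the GAGA factor letters GAGAG, to the CA repeat CACACACA or to the Grainyhead letters AACNGGTT, on either strand.
chinmo (chr2L:1654343-1654463): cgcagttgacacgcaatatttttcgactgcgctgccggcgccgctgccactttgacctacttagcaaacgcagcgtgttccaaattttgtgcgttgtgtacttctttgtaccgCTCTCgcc
Cerk (chr3R:5363617-5363737): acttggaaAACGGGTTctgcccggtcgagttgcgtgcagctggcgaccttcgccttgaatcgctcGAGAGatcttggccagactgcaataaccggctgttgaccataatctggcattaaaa
Kr-h1 (chr2L:6088464-6088584): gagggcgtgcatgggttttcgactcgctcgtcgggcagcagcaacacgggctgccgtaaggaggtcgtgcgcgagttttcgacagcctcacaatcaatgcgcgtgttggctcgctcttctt
raw (chr2L:8718084-8718204): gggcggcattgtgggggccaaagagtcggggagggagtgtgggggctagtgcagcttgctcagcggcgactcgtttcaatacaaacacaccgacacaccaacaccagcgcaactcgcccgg
upSET (chr3L:14005220-14005340): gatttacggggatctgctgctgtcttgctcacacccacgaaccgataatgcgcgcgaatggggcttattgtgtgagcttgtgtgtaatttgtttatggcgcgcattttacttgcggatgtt
Tlk (chrX:3740935-3741055): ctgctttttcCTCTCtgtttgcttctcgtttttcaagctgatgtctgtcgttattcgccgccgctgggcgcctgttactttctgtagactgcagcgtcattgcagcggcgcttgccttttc
org-1 (chrX:8452304-8452424): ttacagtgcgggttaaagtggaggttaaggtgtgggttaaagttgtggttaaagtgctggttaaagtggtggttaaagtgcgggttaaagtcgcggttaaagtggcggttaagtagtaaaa
CG3764 (chr3L:17010205-17010325): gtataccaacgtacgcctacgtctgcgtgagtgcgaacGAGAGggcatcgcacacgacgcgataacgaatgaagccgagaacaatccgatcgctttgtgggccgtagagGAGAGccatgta
Among these 8 windows, 4 held GAGAG and 1, in *Cerk*, also held the Grainyhead letters. The window in *org-1* was built of a short tandem repeat, with 9 matches to GGTTAA. No other member window, and none of 60801 windows of that length from the same class of intron, held as many, whereas 4.03% of member windows and 5.05% of intron windows held at least 1.

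The next 3 sequences are members from all 4 libraries that were printed because they carry the Grainyhead letters, which were more frequent at members than in their surroundings. Apart from *Cerk*, they ranked highest among the members considered for printing that had these letters within 60 bp of the centre.
nuf (chr3L:14201023-14201143): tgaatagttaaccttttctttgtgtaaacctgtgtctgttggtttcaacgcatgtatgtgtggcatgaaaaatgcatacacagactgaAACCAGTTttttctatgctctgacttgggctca
Cip4 (chr3L:4360462-4360582): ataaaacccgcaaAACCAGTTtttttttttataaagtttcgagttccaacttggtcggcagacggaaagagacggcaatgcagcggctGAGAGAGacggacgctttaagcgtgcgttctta
Btk (chr2L:8280372-8280492): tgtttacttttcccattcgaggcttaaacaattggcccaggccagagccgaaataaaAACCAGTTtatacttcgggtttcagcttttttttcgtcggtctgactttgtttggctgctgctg
In all 3 windows the match was the reverse complement AACCNGTT, and the *Cip4* window also held a run of GAGAGAG.

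Strength was read as a rank percentile: the percentage of peaks in the library's thresholded list whose deposited signal value was no higher, so that 100 is the strongest peak. The signal values are the authors' own, carry no stated unit and were used only within 1 list. The lists give no read counts, so the depth behind each peak was unknown. The thresholded lists held 3435, 4415, 2222 and 3038 peaks in replicates 1 to 4, of which 12.1%, 13.1%, 10.6% and 10.1% had summits in the near-TSS introns (11.5% ± 1.37, SD, n = 4).

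Of the 397 members, 115 (29.0%) were called in all 4 libraries, 123 (31.0%) in 3 and 159 (40.1%) in 2. The share called in all 4 was 34.7% for promoter regions, 26.7% for far intronic regions and 33.2% for intergenic regions. For exonic regions over 1000 bp from a TSS it was 42.4%. Replicate 2 called 369 members (92.9%), replicate 1 called 314 (79.1%), replicate 4 called 264 (66.5%) and replicate 3, with the shortest list, called 200 (50.4%). A member missing from a thresholded list was usually present below the threshold. In replicate 3, 159 of its 197 missing members (80.7%) had a summit within 100 bp in the longer list of ranked peaks, and in replicate 1 this held for 79 of 83 (95.2%). For comparison, 5.84% and 8.91% of bases in the same introns lay that close to a ranked summit in these 2 libraries. In all, 336 members (84.6%) were in the thresholded or ranked list of every library. A missing call is therefore not a measured absence of binding.

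Members were neither uniformly weak nor uniformly strong. Their median rank percentile was 57.2, 60.8, 53.0 and 49.8 in replicates 1 to 4 (55.2 ± 4.80, SD, n = 4). Members found in more libraries ranked higher, with a median of their mean percentile of 37.1 for 2 libraries, 52.0 for 3 and 70.5 for all 4. Both the call and the rank come from the same peaks, so these measures are not independent. Promoter regions had a median of 60.4 ± 3.19, far intronic regions 52.6 ± 8.37 and intergenic regions 56.1 ± 5.32.

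**Figure D1:**
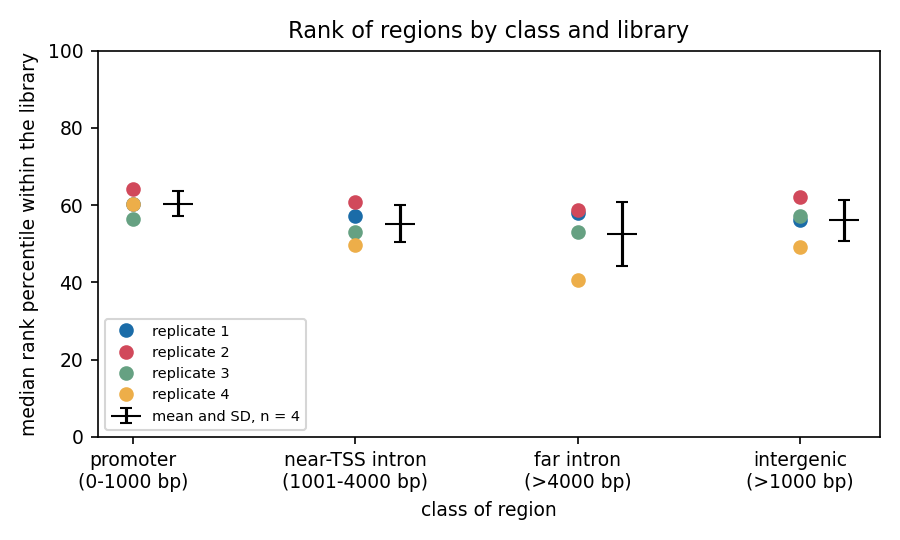
Median rank percentile of regions (vertical axis, 0 to 100) by class of region, with 1 coloured point per library and the mean and SD over 4 libraries in black. Near-TSS intronic regions sat at 55.2 ± 4.80, below promoter regions in every library, and overlapped far intronic and intergenic regions.

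Members ranked below promoter regions in 4 of 4 libraries, with a mean difference (members minus promoter regions) of -5.18 ± 3.64 percentile points (SD, n = 4). Replicate 4 gave most of that spread, with a difference of -10.6 against -3.19 to -3.49 in the others. The exact sign-flip permutation test over libraries (two-sided) gave p = 0.13 (2 of 16 sign patterns), adjusted 0.375 over 3 comparisons. That is the smallest p that 4 libraries allow, so no such comparison here can pass 0.05. Against far intronic regions the difference was 2.63 ± 4.54 (exact permutation p = 0.5, adjusted 0.625), and against intergenic regions -0.896 ± 2.34 (exact permutation p = 0.625, adjusted 0.625). Neither of these exceeded the spread between libraries. Among regions from all 4 libraries, the difference against promoter regions was -1.04 (exact permutation p = 0.875).

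At the upper end, 26 members (6.55%) had a mean rank percentile of at least 90 and 14 (3.53%) of at least 95. The corresponding shares were 5.95% and 2.61% of promoter regions, 5.46% and 3.16% of far intronic regions, and 6.4% and 5.6% of intergenic regions.

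The strongest member lay in *KCNQ*, which encodes a voltage-gated potassium channel, on chromosome arm 2R with its centre at 10160051 (dm6). Its rank percentiles were 99.9, 99.9, 99.4 and 99.8 in replicates 1 to 4. The nearest start belonged not to *KCNQ* but to the neighbouring gene *mlt*, 1120 bp away and transcribed away from the region. The second lay in an intron of *chinmo* itself, 3145 bp downstream of its most upstream start, with rank percentiles of 99.1, 99.6, 99.6 and 99.7. Both regions were therefore in the top 1% of every library. How many copies of the *chinmo* locus this transgenic strain carried is not given in the sources used here. For the members in *chinmo*, copy number cannot be told apart from occupancy.

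The third was in *Cerk*, which encodes ceramide kinase, with 99.6, 99.4, 97.7 and 99.5. *Kr-h1*, a zinc finger factor of the juvenile hormone response, held a member with 98.4, 99.5, 99.2 and 98.1, located 2888 bp upstream of a start that it shares with *CG45075*. Next came *raw*, which restrains JNK signalling during dorsal closure, with 98.7, 99.2, 97.9 and 98.7. *upSET*, a SET domain chromatin protein gene, followed with 97.6, 98.8, 98.8 and 98.9.

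The member of *mam*, the Notch coactivator mastermind, had 99.4, 99.6, 97.1 and 97.4. A member of *Tlk*, the Tousled-like kinase gene, had 99.0, 99.0, 98.5 and 95.7, and another had 98.2, 97.2, 96.3 and 96.9. The tandem repeat of *org-1*, a T-box factor gene, had 99.7, 99.8, 98.1 and 92.6, so replicate 4 was the low library there. *CG3764* had 99.2, 99.3, 94.7 and 96.9. The member shared by the overlapping genes *Glut4EF* and *CG46467* had 88.9 in replicate 1 and 98.4, 98.3 and 97.7 in the others.

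**Figure D2:**
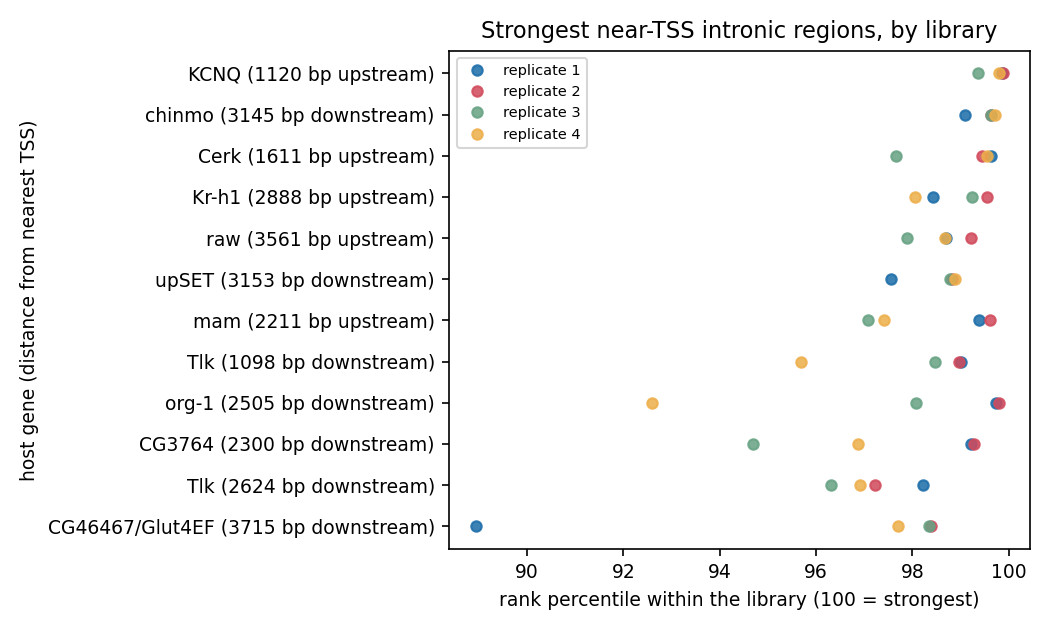
Rank percentile within each library's thresholded list (horizontal axis, 100 strongest, axis starting near 88) for the 12 highest-ranking members among those called in all 4 libraries, labelled by host gene and by distance and side from the nearest TSS. In 10 of them all 4 libraries lie above 94, and the exceptions are *org-1* at 92.6 in replicate 4 and *Glut4EF* with *CG46467* at 88.9 in replicate 1.

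The members at the edges of the distance limits were ordinary regions. The closest to a start was in *shn*, 1005 bp away, with a mean rank percentile of 65.1 over 3 libraries, and the nearest intronic region left out lay 998 bp from the start of *CG33111* with a mean of 30.4. At the upper limit, the last member was in *Gdap2*, 3985 bp away with a mean of 33.8, and the first region left out was in *CG5151*, 4054 bp away with a mean of 11.0.

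Chinmo regions were denser in introns near a start than farther away. The 14.3 Mb of intron over 1000 and up to 4000 bp from a TSS held 27.7 regions per Mb, and the 30.4 Mb of intron beyond 4000 bp held 11.5 per Mb, a ratio of 2.42. Counted by summits in single libraries, the ratio was 2.21, 2.43, 2.54 and 2.53 in replicates 1 to 4. On the log2 scale it was 1.28 ± 0.092 (SD, n = 4), above 0 in 4 of 4 libraries (exact sign-flip permutation test, two-sided, p = 0.13, the smallest possible).

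Within the 3000-bp band the decline was shallow. Density was 35.4 members per Mb up to 1500 bp, 26.3 from 1501 to 2000 bp and 28.4 from 2001 to 2500 bp. It was 23.2, 26.5 and 21.4 per Mb in the following steps of 500 bp. In every library the innermost step was the densest, and even the outermost step (12.1 to 25.4 summits per Mb) exceeded that library's far introns (6.49 to 16.6 per Mb).

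**Figure D3:**
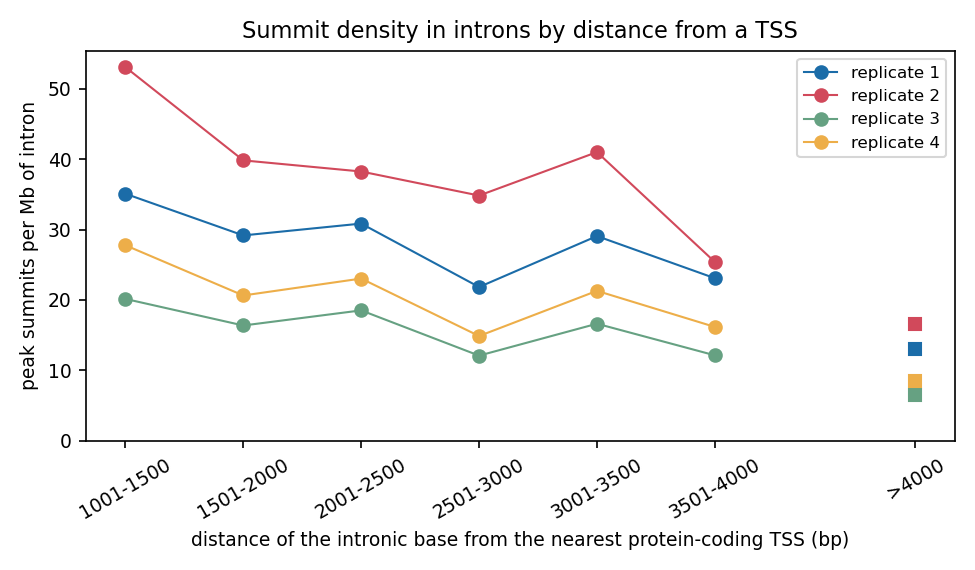
Peak summits per Mb of intron (vertical axis) against distance of the intronic base from the nearest TSS in steps of 500 bp (circles) and beyond 4000 bp (squares), with 1 colour per library. Each library is highest in the innermost step and lowest beyond 4000 bp.

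Members favoured first introns and the promoters of their own gene. Of the 397, 305 (76.8%) lay in the first intron of at least 1 transcript, against 58.1% of intron bases in the same distance band. Among summits of single libraries the share was 76.7% ± 0.69 (SD, n = 4), higher in 4 of 4 libraries (exact permutation p = 0.13). The nearest TSS belonged to the host gene for 352 members (88.7%), against 74.8% of intron bases. Members lay downstream of the nearest TSS in 65.7% of cases, compared with 68.7% of intron bases, so they were not shifted towards the downstream side.

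The split by gene and side was uneven. Regions upstream of an alternative start of their own host gene made up 25.2% of members and 16.1% of intron bases. Regions near the start of another gene and downstream of it made up 2.27% of members and 10.03% of intron bases. Regions upstream of a neighbour's start, like that in *KCNQ*, made up 9.07% and 15.2%.

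The nearest promoter was often occupied as well. For 224 members (56.4%) another of the 3491 regions lay within 1000 bp of the nearest TSS, against 21.7% of intron bases. Member density was 71.9 per Mb where that promoter was bound and 15.4 per Mb where it was not. The share was higher than over intron bases in 4 of 4 libraries (56.5% ± 2.32, SD, n = 4, exact permutation p = 0.13). Members beside a bound promoter had a median rank percentile of 57.8 ± 5.64 and the other members 51.8 ± 6.544 (SD, n = 4), but in replicate 1 the order was turned, at 56.8 and 57.4.

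Chromosome arms differed in member density. It was 38.9 members per Mb of near-TSS intron on 2R, 33.5 on 3L, 30.04 on 2L, 23.4 on 3R and 15.4 on X, and the small chromosome 4 held 1 member. The X chromosome thus held 20.4% of the intron and 11.3% of the members. Its share was below that of the intron in all 4 libraries, at 11.9% ± 0.792 of summits (SD, n = 4, exact permutation p = 0.13). Among members found in all 4 libraries the gap shrank from -9.03 to -2.98 percentage points. The sex of the embryos was not collected, and the X copy number cannot be told apart from occupancy.

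Base composition changed sharply at the summits. The median G+C content of the 201-bp window was 47.3% at members and 39.8% over windows of the same introns. It was also high in the other classes, at 46.3% for promoter and for far intronic regions, 47.3% for intergenic and 49.8% for exonic regions. Against flanks centred 500 bp to either side it was higher by 9.95, 9.95, 12.9 and 11.4 percentage points in replicates 1 to 4 (11.1 ± 1.43, SD, n = 4, exact permutation p = 0.13). Motif shares below are not corrected for this difference, and its part in them was not tested.

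Repeats of GA were the most widespread of the motifs that were more frequent at summits than in flanks in 4 of 4 libraries. GAGAG, the core bound by GAGA factor and pipsqueak, was found in the summit windows of 45.6% of members and in 22.7% of flanks, a difference of 22.9 ± 0.975 percentage points (SD, n = 4, exact permutation p = 0.13, adjusted 0.167 over 24 motifs). Centred on the joined regions, 172 members (43.3%) held it, against 20.6% of windows of the same introns. The share was 41.8% for promoter regions, 50.3% for far intronic regions and 43.2% for intergenic regions. The longer run GAGAGAG, every match of which is also a match of GAGAG, was in 15.6% of summit windows and 4.41% of flanks.

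The CA repeat had the larger ratio. CACACACA was in 22.5% of summit windows and 3.82% of flanks (difference 18.6 ± 3.44, SD, n = 4, exact permutation p = 0.13, adjusted 0.167). On the joined regions, 80 members (20.2%) held it, against 5.29% of windows of the same introns. The share was 11.9% for promoter regions, 17.2% for far intronic regions and 16.4% for intergenic regions. In a search over all 6-base words, added after the data were seen, the words with the largest gain at summits were cacaca (44.0% against 16.2% of flanks), with acacac next and then gcacac.

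The Grainyhead letters AACNGGTT were in 10.6% of summit windows and 3.81% of flanks (difference 6.74 ± 1.83, SD, n = 4, exact permutation p = 0.13, adjusted 0.167). On the joined regions 47 members (11.8%) held them, against 2.56% of windows of the same introns. The share was 5.61% for promoter regions, 8.05% for far intronic regions and 9.6% for intergenic regions. Letters of other factors that were also more frequent at summits than in flanks in 4 of 4 libraries were GGCGCC of Mad and Brinker (6.17% and 1.88%), the E-box CAGCTG (12.6% and 8.23%), the E-box CACGTG (4.66% and 1.67%), the Sox letters ACAAAG (19.04% and 13.9%) and the Zelda letters CAGGTAG (1.76% and 0.909%). Against windows of the same introns the joined regions differed less for some of them: 6.55% and 2.22% for GGCGCC, 12.8% and 7.37% for CAGCTG, 4.03% and 2.40% for CACGTG, 16.9% and 15.7% for ACAAAG, and 1.76% and 0.979% for CAGGTAG. Each E-box match is also a match of CANNTG, which itself was in 69.0% of summit windows and 67.1% of flanks.

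**Figure D4:**
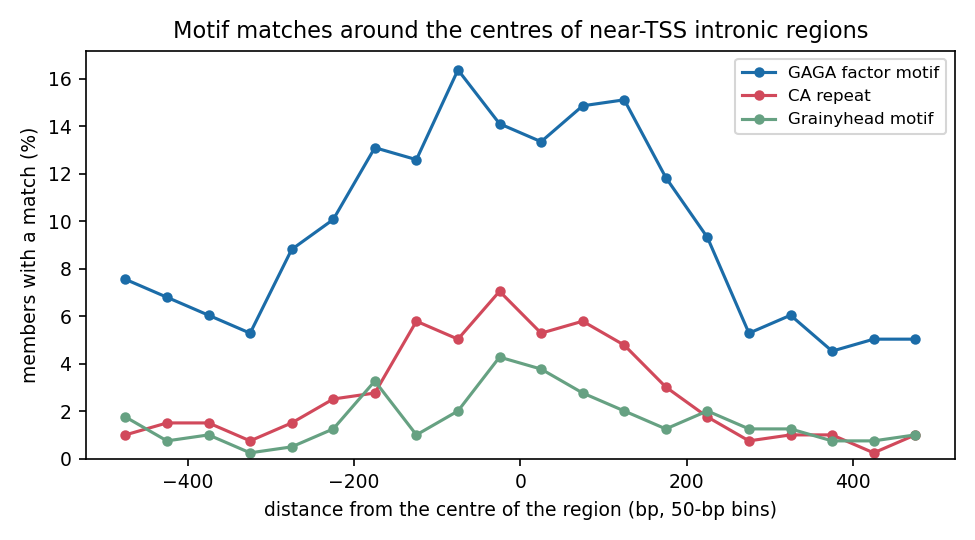
Percentage of the 397 members with a match (vertical axis) in each 50-bp bin of distance from the centre of the region (horizontal axis, bp), for GAGAG, CACACACA and AACNGGTT on either strand. GAGAG reached 16.4% and CACACACA 7.05% within 100 bp of the centre, and AACNGGTT 4.28% in the bin next to it, and all 3 were lower beyond 300 bp.

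Other letters were rarer at summits than beside them in 4 of 4 libraries. AGGAC, the tramtrack core, was in 2.35% of summit windows and 11.2% of flanks, and in 14.8% of windows of the same introns. The A/T-rich homeodomain letters TAATTA were in 6.82% and 15.1%, the GATA factor letters AGATAA in 7.64% and 14.4%, the Stat92E letters TTCNNNGAA in 3.31% and 8.96%, and the Mef2 letters TATTTATA in 2.02% and 6.18%. The exact permutation p was 0.13 for each, adjusted 0.167. Smaller drops in 4 of 4 libraries, with the same p, were seen for TAAACA of forkhead factors (18.4% and 22.3%), CTTTGAA of pangolin (3.19% and 4.92%), GTGGGAA of Suppressor of Hairless (1.38% and 2.59%) and the run AAAAAAAA (12.9% and 14.6%). CCGGAA of ETS factors, TGANTCA of AP-1 and AAGGTCA of nuclear receptors did not differ in 1 direction in every library.

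Motifs of housekeeping promoters were rare in members, as they were in windows of the same introns. The Dref letters TATCGATA were in 0.504% of members and in 14.2% of promoter regions, and their share in windows of the same introns was 0.373%. The M1BP core GTCACACT was in 0.252% of members, 3.54% of promoter regions and 0.344% of windows of the same introns. Promoter windows lie at start sites and member windows do not, so the 2 sets differ in position by definition.

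Members differed in strength by the letters they held. Those with GAGAG had median rank percentiles of 64.1, 68.5, 59.4 and 54.2 in replicates 1 to 4, and those without had 51.6, 53.0, 51.4 and 41.03. The difference was 12.3 ± 3.11 (SD, n = 4), positive in 4 of 4 libraries (exact permutation p = 0.13, adjusted 0.188 over 3 motifs), and was 5.77 over members from at least 3 libraries, 6.64 over those from all 4 and 8.03 without replicate 1. With CACACACA the difference was 7.84 ± 4.04, also positive in 4 of 4 libraries (exact permutation p = 0.13, adjusted 0.188), and it was 3.58 without replicate 4 and 3.92 without replicate 1. With AACNGGTT it was -4.23 ± 4.01 and its direction was not the same in every library (exact permutation p = 0.25). It ranged from -7.18 (without replicate 3) to -2.60 (without replicate 1) with 1 library left out, was -6.68 without replicate 2, and was -12.5 over members from all 4 libraries.

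No member held all 3 motifs, 61 (15.4%) held 2 of them, 177 (44.6%) held 1 and 159 (40.1%) held none. Whether the motifs occurred together more or less often than their single shares would give was not tested. Of the 47 members with Grainyhead letters, 40.4% had a bound nearest promoter, against 58.6% of the other members. For GAGAG the shares were 61.0% with and 52.9% without.

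The 397 members fell in 327 of the 6967 protein-coding genes that had any near-TSS intron, or 4.69%. A single member was held by 258 of these genes, 54 held 2 and 15 held 3 or more. Overlapping genes shared 27 members. A member was counted for every gene that spanned it, and for 45 members the nearest TSS belonged to no such gene. Where a member is given below by its mean rank percentile, that mean is over the libraries that called it, and the SD over those libraries had a median of 13.3 across the 397 members. Of 98 pairs of neighbouring members in the same gene, 24 lay within 1000 bp of each other, with a median spacing of 2676 bp.

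*Tlk* held the most members, 7 in all. Those with centres at 3740995, 3742521, 3743253 and 3744684 on X were in 1 intron of 41450 bp and had mean rank percentiles of 98.0, 97.2, 93.8 and 95.6 over 4 libraries. Another in that intron, at 3743966, had 46.4, and the remaining pair, in an intron of 4294 bp, had 80.9 and 77.0. All 7 were called in all 4 libraries. No region lay within 1000 bp of the starts nearest to the 5 members of the long intron, whereas the start nearest to each of the remaining pair was bound.

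*mam* held 6 members, with mean rank percentiles from 13.9 to 98.4. *Eip75B*, *shn* and *siz* held 5 each. In *shn*, a zinc finger cofactor of BMP signalling, the means ran from 37.2 to 92.3, and in *siz*, which encodes an Arf guanine nucleotide exchange factor, from 37.7 to 78.8. *SNF4Agamma*, the gamma subunit of AMP-activated kinase, held 4. Genes with 3 were *chinmo*, the forkhead gene *CHES-1-like*, *Dyro*, *EcR*, *Eip74EF*, the odd-skipped family gene *bowl*, *neb*, the RNA-binding gene *ps* and the BTB gene *psq*.

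The 3 members of *chinmo* differed in strength. Beside the region at 1654403, a member at 1669491 had rank percentiles of 80.1, 74.5, 71.5 and 87.1 in replicates 1 to 4. The last, at 1670673, was called in replicates 3 and 4 only, at 24.9 and 58.4.

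The nuclear receptor and ecdysone list had the largest share of genes with a member among the 20 lists reported. Of its 21 eligible genes, 9 (42.9%) held one, against 4.69% of all eligible genes. These genes have long introns, yet density was also higher: 19 members, or 11.2 per 100 kb of near-TSS intron, against 2.82 per 100 kb over all eligible genes, a density at which the list's introns would hold 4.76. With members from all 4 libraries alone, the count was 5 genes. The list's promoters were bound in 12 of the 21 genes (57.1%), against 26.7% of all eligible genes. A far intronic region was held by 9 of the 21, against 201 of all 6967 eligible genes. The high share was thus not particular to near-TSS introns.

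Receptors of the hormone and its early targets carried most of these members. *EcR*, the ecdysone receptor gene, held 3, with mean rank percentiles of 64.6 and 43.8 over 4 libraries and 36.6 over 2. *Eip74EF*, an ETS factor gene induced early by ecdysone, held a member with 95.5, 94.9, 95.05 and 90.9 in replicates 1 to 4, another with a mean of 72.4 over 3 libraries, and another with 50.2 over 2. *Eip75B*, an early-induced nuclear receptor gene, held a member with 89.5, 94.3, 63.6 and 55.8. Its other members had means of 56.5 over 4 libraries, 75.7 and 66.5 over 3, and 33.3 over 2.

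The other genes of the list held 1 or 2 members each. *ftz-f1* had 85.3, 69.9, 25.5 and 38.2 in replicates 1 to 4. *Blimp-1*, a zinc finger repressor induced by ecdysone, had a mean of 69.2 over 3 libraries. *Hnf4* held 2 members with means of 45.2 and 35.5, and *tai*, the receptor's coactivator, held 2 with 52.6 and 39.6. *Hr4* had a mean of 20.03 over 3 libraries, and the member of *Hr3*, shared with overlapping genes, had 9.71 over 2.

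The BTB zinc finger list, the family of Chinmo itself, had 6 of 17 genes with a member (35.3%). Besides *chinmo*, *CG3726* had a mean rank percentile of 67.7 over 2 libraries and *Trl*, the GAGA factor gene, 62.2 over 3. The others were *bab1*, *lola* and *psq*, and 3 of the 6 kept a member found in all 4 libraries. The start nearest to the *Trl* member was one of *CG42507*, 1306 bp away. The JAK/STAT list had 4 of 14 (28.6%), where *chinmo* was counted again, with *Ptp61F*, a phosphatase gene, at a mean of 67.1 over 4 libraries and *Socs36E*, a feedback inhibitor gene, at 57.4 over 2. With members from all 4 libraries alone, 2 of the JAK/STAT genes held one. The start nearest to the *Ptp61F* member belonged to another gene, *ru*, 2078 bp away.

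Among signalling and growth genes, the EGFR and FGFR list had 5 of 27 (18.5%), among them the inhibitor gene *sty* with 77.3 and 92.0 in replicates 1 and 2, *Raf* with a mean of 62.9 and *pnt* with 60.5. The insulin and TOR list had 3 of 17 (17.6%), with *S6k* at 66.3, 75.8, 98.0 and 93.8 in replicates 1 to 4, *InR* at a mean of 23.4 and *Sesn* at 18.2. The start nearest to the *Sesn* member was one of *CG18128*. The BMP and activin list had 3 of 19 (15.8%), with *shn*, the inhibitor gene *Dad* at 66.7 and *dally* at 37.3. The Notch list had 2 of 19 (10.5%), *mam* and *numb*, the latter at 39.5. The Hedgehog list had *ptc* alone of 11 genes, at 32.2, and the Wnt list had *Notum* alone of 23, at 62.8. Several of these counts rested on 1 library: without replicate 2 the EGFR and FGFR list had 2 genes, the insulin and TOR list 1 and the Notch list 1. The insulin and TOR list also had 1 without replicate 4, the Notch list 1 without replicate 1, and the Hedgehog list none without replicate 1 or replicate 4. With members from all 4 libraries alone, the EGFR and FGFR and the Hedgehog lists had none, the insulin and TOR list 1 and the Notch list 1.

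Among regulators of identity, the Hox list had 3 of 12 (25%), namely *hth* at a mean of 66.5, *tsh* at 33.6 and *Abd-B* at 20.6. The temporal identity list had 3 of 20 (15%), which were *chinmo*, *hth* and *grh*, the last at 22.1 over 2 libraries. The tracheal and epithelial list had 4 of 18 (22.2%), with *GATAd* at 81.8, *cv-c* at 47.6 and *crb* at 39.0 leading. The Polycomb and trithorax list had 4 of 25 (16%), with *Trl*, *ph-p* at 57.9 and *Su(z)2* at 51.0 leading. Without replicate 2 the Hox list had 1 gene, and the tracheal and epithelial list had 2 without replicate 1 or replicate 2. With members from all 4 libraries alone, the Hox list had 1, the tracheal and epithelial list 2 and the Polycomb and trithorax list none.

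The RNA-binding list had 3 of 23 (13.0%), with *ps* at 93.5, 95.04, 8.28 and 78.3 in replicates 1 to 4, *mbl* at a mean of 68.3 and *brat* at 59.8. The cell adhesion list had 3 of 31 (9.68%), with *stan* at 58.6, *Cad96Ca* at 46.1 and *Cad87A* at 42.4. Single genes came from the glial list (*Gs2* at 76.2, of 14), the potassium channel list (*KCNQ*, of 18) and the muscle list (*Mef2* at 63.1, of 24). With members from all 4 libraries alone, the RNA-binding list had 1.

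A share of genes above 4.69% was not always a higher density, because genes differ in intron length. The RNA-binding list held 7 members where the density over all eligible genes would give 8.26, the cell adhesion list 3 against 7.66, and the potassium channel list 1 against 4.12. The EGFR and FGFR list held 6 against 4.01, the tracheal and epithelial list 4 against 3.27, and the temporal identity list 5 against 4.25. The ratio to that density was larger for the Notch list (7 against 1.65), the BMP and activin list (7 against 2.63), the JAK/STAT list (6 against 1.88), the BTB list (10 against 3.58), the Polycomb and trithorax list (5 against 1.15), the insulin and TOR list (3 against 1.10) and the Hox list (3 against 1.79). Wnt genes held 1 against 2.88, muscle genes 1 against 2.88, Hedgehog genes 1 against 1.44 and glial genes 1 against 1.01. A single gene could decide such a count, as *mam* did with 6 of the 7 Notch members. *shn* held 5 of the 7 BMP and activin members and *chinmo* 3 of the 6 JAK/STAT members. In the BTB list, *chinmo* and *psq* held 3 each of the 10.

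The axon guidance list had no member in any of its 35 eligible genes. At the density over all eligible genes its introns would hold 4.74 members. Promoters of 13 of these genes (37.1%) were bound, against 26.7% of all eligible genes. A far intronic region was held by 2 of the genes, against 201 of all 6967 eligible genes. The list was thus not without Chinmo regions. With distance taken from the TSS of any annotated gene in place of protein-coding genes, 1 of its genes held a region. The Sox list also had none, in 6 eligible genes whose introns would hold 0.601 members at that density.

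**Figure D5:**
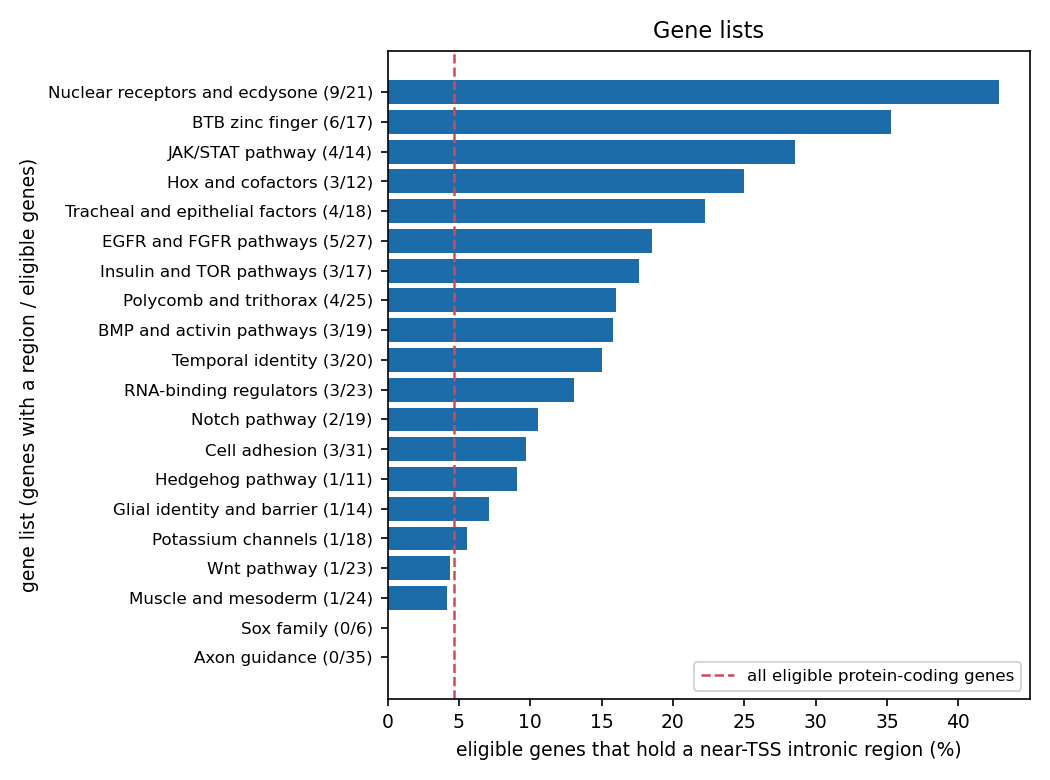
Percentage of eligible genes that hold a near-TSS intronic region (horizontal axis) for 20 gene lists, with the counts beside each name and the 4.69% of all eligible genes as a dashed line. Nuclear receptor and ecdysone genes reach 42.9% and axon guidance genes 0. Genes with longer introns have more room for a region.

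Most members recurred in lists that the authors derived from several libraries. In the list described as conservative, with 5841 peaks, 360 members (90.7%) had a summit within 100 bp, including all 115 that were called in 4 libraries. In the longest list, with 13848 peaks, 386 (97.2%) did. Other classes recurred at similar rates. For promoter, far intronic and intergenic regions the shares were 87.3%, 89.1% and 89.2% in the conservative list. In the longest list they were 97.2%, 96.3% and 94.4%. Which libraries each of these lists compares is not stated, and they rest on the same libraries as the members.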

How the data were processed

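ChIP-seq peak lists of 4 biological replicates of chinmo-GFP embryos were analysed. The authors deposited peaks on assembly dm6, per the labels, as lists that passed an IDR threshold and longer ranked lists, each peak with a signal value of the authors' own peak calling and no stated unit. Aligner and peak caller: not given in the sources used here. Control libraries were not analysed here. The age field holds a number that cannot be an embryo age, so age came from the source label.

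Only peaks on the 6 main chromosome arms entered, which left out 3 peaks of replicate 3. Gene models were Ensembl BDGP6.54 (release 115), sequence was RefSeq Release 6, and coordinates are 1-based. Motifs were searched on both strands in 201-bp windows around each library's summits and in flanks centred 500 bp away, with 24 motifs. Intron bases were sampled every 100 bp for comparison of gene features. Libraries were compared by an exact sign-flip permutation test (two-sided) with Benjamini-Hochberg adjustment, in Python 3.11.15 with numpy 2.4.6. The joining, motif search and test were tested on simulated data. Shares over members are descriptions, with no test over regions. Differences between libraries measure the spread between these 4 samples.

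The 21 gene lists held 494 names, of which 4 were found by an older symbol and 7 were not found among protein-coding genes. The result of 1 list is not reported here, which leaves 20. Genes named are the hosts of the 12 strongest members found in all 4 libraries, hosts of at least 3 members, up to 3 hosts per list by their highest-ranked member, the members at the distance limits and *chinmo*; *bab1*, *lola*, *psq*, *mlt*, *nuf*, *Cip4*, *Btk* and 5 further ecdysone genes (*ftz-f1*, *Hnf4*, *Hr3*, *Hr4* and *tai*) were chosen after their values were seen. *ru*, *CG42507* and *CG18128*, named for their starts, were also chosen after their values were seen. The members and lists were chosen with earlier results of these data known. The alternatives were other numbers of libraries, windows, distance limits and peak lists, and leaving out each replicate.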

Additional observations from a re-analysis of the deposited data

Results flagged for a closer look

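Each of 53 sets of 4 library values was examined for 1 library that stood apart from the other 3, and 11 did so. Chance alone would mark about 1 in 20 such sets. For the rank of members against promoter regions, replicate 4 stood apart with -10.6 against -3.49 to -3.19 in the others. For the share of CACACACA at summits minus flanks, replicate 3 had 23.8 percentage points against 16.4 to 17.5. For CANNTG, replicate 4 had a difference of 0 against 2.39 to 2.71, for the AP-1 letters TGANTCA replicate 3 had 0 against 1.59 to 1.76, and for AGATAA replicate 3 had -5 against -7.39 to -7.18.

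Single members also had 1 library apart. The rank percentile of the *KCNQ* member was 99.4 in replicate 3 against at least 99.8, and that of the *chinmo* member at 1654403 was 99.1 in replicate 1 against at least 99.6. The *Cerk* member had 97.7 in replicate 3 against at least 99.4, and the *upSET* member had 97.6 in replicate 1 against at least 98.8. The *Tlk* member at 3740995 had 95.7 in replicate 4 against at least 98.5. The widest gap was at *Glut4EF* and *CG46467*, with 88.9 in replicate 1 against at least 97.7.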

How the results depend on the processing

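The number of members depended on how many libraries had to agree. It was 238 with at least 3 libraries, 115 with all 4, 192 from the upper 50% of each list and 761 in the authors' conservative list, and ranged from 260 (without replicate 2) to 371 when 1 library was left out. The share of eligible genes with a member was 2.83%, 1.39% and 2.40% under the first 3 of these settings, and 3.10% to 4.46% with 1 library left out. The rank difference against far intronic regions turned to -0.119 with at least 3 libraries. That against intergenic regions ranged from -3.31 to 0.893 (without replicate 3) with 1 library left out, and turned to 1.49 without regions within 100 kb of *chinmo*. Against promoter regions it stayed between -5.85 and -4.09 with 1 library left out, but was -1.04 with all 4 libraries required. Small motif differences also turned: TATCGATA (-0.104) to 0.143 with at least 3 libraries, 1.52 with all 4, from -0.314 to 0.0292 (without replicate 2) with 1 library left out, 0.123 with 50-bp windows and 0.564 with flanks 1000 bp away; CCGGAA of ETS factors (0.0823) to between -0.248 (without replicate 3) and 0.678 with 1 library left out, -0.0487 with 50-bp windows and -2.91 with the farther flanks, where TGANTCA (1.26) gave -0.247; and AAAAAAAA (-1.63) to 0.652 with all 4 libraries. The cause was not tested. GAGAG, CACACACA and AACNGGTT kept their direction under all alternatives run. Depth was unknown and limits every missing call. All libraries belong to 1 group, so samples could not be paired between conditions. The tests compared classes of regions or windows within each library.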
